A study of Mus musculus with 4 samples.

Results

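The T-box genes Tbx1, Tbx2, Tbx3, Tbx4, Tbx5, Tbx15, Tbx18, Tbx20 and Tbx22 were followed across the mouse mandibular arch and the developing tongue. These 9 genes, of 24977 genes named on the array, were the ones for which a non-control probe of the scanner files carries the symbol as its gene name. They were represented by 18 probes of 56601, with 1 probe for 5 genes and more than 1 for the other 4 (Tbx3, Tbx15, Tbx20 and Tbx22). RNA came from ICR mouse embryos, an outbred stock, with no genetic change or treatment named. Tissue pooled in 1 tube each came from the middle of the mandibular arch at embryonic day E9.5 (MMA, 12 embryos), from the lateral lingual swellings (LLS, with a region label of medial) and the lateral part of the arch (LMA) at E11.5 (4 embryos each), and from the middle of the tongue at E14.5 (T, 4 embryos). Each pool was hybridised to 1 single-colour Agilent array, so there were no replicates and the number of arrays limits the precision. Differences were described by size alone, without a test. The study asked which genes mark each region and stage.

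T-box genes encode transcription factors that share a DNA-binding domain, the T-box, and that bind a short sequence known as the T-box element. Some mainly activate their targets and others, such as Tbx2 and Tbx3, are known as repressors. In the embryonic head they are known for roles in the pharyngeal arches (Tbx1), in the palate and the attachment of the tongue (Tbx22), and in craniofacial mesenchyme (Tbx15 and Tbx18). Tbx5 and Tbx20 are best known from the heart, and Tbx4 and Tbx5 from the limbs.

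The probes that the results turn on are shown first, because each value below rests on 1 stretch of 60 bases. The first 30 bases, 5′ to 3′, are given for the single probes of the 3 genes that were highest in LMA, each on the plus strand of mouse build mm9 per the file headers (chr11:85655384-85655443 for Tbx2, chr11:85729510-85729569 for Tbx4, chr5:120334087-120334146 for Tbx5).
Tbx2: ttttcactttttgctccagagggagaacga
Tbx4: gacaggcggtatgaaacttcaagtgttttt
Tbx5: aaatacctacctccgtcatgtgagatgtct
Whether these stretches lie in a coding exon or an untranslated region was not analysed here, since no mm9 annotation was used.

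The probes of Tbx22 were chosen for display because they gave different orders of the tissues. The brightest, probe 1 (chrX:104881102-104881161, plus strand, mm9), was designed to an Ensembl transcript and ends in a run of 18 alternating A and G, marked by capitals in its last 30 bases. Probe 2 (chrX:104884006-104884065, plus strand), designed to a RefSeq transcript, is shown by its first 30 bases.
Tbx22 probe 1: aaggaaagagaaAGAGAGAGAGAGAGAGAG
Tbx22 probe 2: cgcatctttgtgtttggttgaaatgcatat
The array held 12 probes with such a run of 8 GA repeats. All 12 were well above background on all 4 arrays, against 50.2% of all probes, and the median of their mean signals was 7560 against 49.8. Without the Tbx22 probe the other 11 had a median of 8430. Of the 12, 6 had a range over the tissues of at least 2-fold, against 36.9% of the probes well above background on 1 or more arrays. Whether the run bears on the Tbx22 signal was not tested.

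A further pair shows the sequence that family members share. Among all pairs of member probes of different genes, the best match without gaps (identical minus different bases) was between Tbx15 probe 2 (chr3:99118769-99118828, plus strand) and Tbx22 probe 3 (chrX:104875535-104875594, plus strand), with 28 of 43 aligned bases identical (65.1%). Capitals mark the identical bases.
Tbx15 probe 2: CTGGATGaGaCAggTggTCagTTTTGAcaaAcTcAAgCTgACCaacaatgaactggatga
Tbx22 probe 3: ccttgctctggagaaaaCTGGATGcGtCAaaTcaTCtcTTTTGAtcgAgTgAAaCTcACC
The next best pair shared 13 of 19 aligned bases, so no member probe had a near-identical partner in another member. Tbx15 probe 2 was not well above background on any array, with signals of 4.4 to 5.8, whereas Tbx22 probe 3 was well above background in LLS and LMA.

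Promoters in RefSeq (build GRCm38.p6) matched 5 of the 9 genes, with 8 start sites in all. Tbx2, Tbx3, Tbx5 and Tbx15 were not matched. The 250 bases before the start are printed for Tbx4 (chr11:85896515-85896764, plus strand), Tbx18 (chr9:87731261-87731510, minus strand) and the first start of Tbx22 (chrX:107667714-107667963, plus strand), to show how CG content varied among the members. Capitals mark CG dinucleotides.
Tbx4: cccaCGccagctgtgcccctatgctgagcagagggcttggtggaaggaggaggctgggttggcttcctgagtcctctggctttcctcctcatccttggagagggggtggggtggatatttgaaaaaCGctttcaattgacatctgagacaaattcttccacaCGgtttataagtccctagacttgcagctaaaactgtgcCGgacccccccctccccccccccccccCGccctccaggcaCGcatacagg
Tbx18: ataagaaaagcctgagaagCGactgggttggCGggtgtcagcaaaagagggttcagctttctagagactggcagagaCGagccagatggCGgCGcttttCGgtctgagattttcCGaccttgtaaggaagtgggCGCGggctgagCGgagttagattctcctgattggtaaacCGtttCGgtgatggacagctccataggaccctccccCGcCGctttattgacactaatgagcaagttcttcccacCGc
Tbx22: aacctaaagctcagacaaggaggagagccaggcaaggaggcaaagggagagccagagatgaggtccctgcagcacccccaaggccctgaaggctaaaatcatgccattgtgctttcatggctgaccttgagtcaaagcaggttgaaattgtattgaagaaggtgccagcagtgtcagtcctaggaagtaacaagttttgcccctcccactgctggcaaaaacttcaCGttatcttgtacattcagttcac
The Tbx18 window held 15 CG dinucleotides, the Tbx4 window 6 and the Tbx22 window 1, and the median over all promoters was 6. The other windows held 17 and 10 (Tbx1), 22 (Tbx20) and 2 and 1 (the later starts of Tbx22). The core of the T-box element, GGTGTGA on either strand, was in 0 of the 8 member windows and in 3.33% of the 32851 promoters of this length. The longer AGGTGTGA, which contains it, was in 0 of 8 and 1.12%. TATAAA on either strand was in 1 of 8, as TTTATA in the Tbx4 window, and in 12.4% of all promoters.

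The arrays were alike in quality. Of 59305 non-control spots on each, between 57.0% and 62.9% were well above background, the flag by which the scanner software calls a spot detected, and 0 were saturated. Signals below are the processed signals of the scanner software, which share no unit with counts. The lowest signal that any spot well above background had was between 20.1 and 26.7. Differences are of log2 signal after the 75th percentile of each array (between 421.8 and 506.7) was subtracted, so that 1 is 2-fold. Where 1 tissue was not well above background, its value was raised to that lowest signal if below it, and the difference is a bound. In 291 probes printed 10 times on each array, the SD of a difference between single spots was 0.0885 to 0.091. The software gave errors of 0.20 to 0.36 for the measured differences of the members' brightest probes. Neither covers the spread between pools.

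Markers of the labelled tissues were detected. All 9 cranial mesenchyme markers were detected before E14.5 and 7 in T, and 11 of 11 skeletal muscle markers were in T, against 4 in MMA. As parts of the summed signal of the array (ppm), muscle markers went from 3.9 in MMA through 38.2 in LLS and 137.0 in LMA to 2076.7 in T. The extraction text of the labels speaks of cerebellum. Of the 9 cerebellar markers listed, 4 or 5 were well above background in each tissue, and the list summed to between 3.9 and 16.9 ppm. Barhl1 (209.0 to 269.3), Pax2, Zic1 and Pcp2 were so on all 4 arrays, and Pcp2, a Purkinje cell gene, ranged from 43.2 in T to 1560.1 in LMA. Atoh1, En1, Neurod1 and Gabra6 were not well above background on any array, and En2 was so in MMA and LMA. In such bulk samples, fewer cells of a type and less RNA per cell cannot be told apart.

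Tbx2, Tbx4 and Tbx5 were each highest in LMA, the lateral arch at E11.5, by 3.87-fold to 11.8-fold over the next tissue. Of all genes detected on 1 or more arrays, 140 of 17665 (0.793%) were at least 2-fold higher in LMA than in each other tissue, and these 3 of the 9 members were among them. Tbx2, which encodes a repressor, had a signal of 535.8 (MMA), 294.5 (LLS), 2492.2 (LMA) and 415.0 (T). It was thus detected everywhere but stood apart in LMA alone. Its level in LMA was 7.61-fold that in LLS, 5.81-fold that in T and 3.87-fold that in MMA, while LLS lay 1.97-fold below MMA, just inside 2-fold.

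Tbx4, known for the hindlimb and the lung, gave 17.5 (MMA), 137.9 (LLS), 1274.9 (LMA) and 66.6 (T). MMA was not well above background, and the other tissues were. LMA exceeded LLS 8.32-fold and T 18.5-fold, and was at least 47.8-fold above MMA. LLS was in turn 2.23-fold above T and at least 5.75-fold above MMA, so the order was LMA, LLS, T and then MMA.

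Tbx5, known for the forelimb and the heart, gave 27.3 (MMA), 14.3 (LLS), 388.3 (LMA) and 10.9 (T). Only LMA was far above background, MMA was barely above it, and LLS and T were not well above it. LMA was 11.8-fold above MMA, at least 16.4-fold above LLS and at least 14.1-fold above T. Beside these genes, the summed cranial mesenchyme markers were also highest in LMA, at 533.0 ppm against 355.2 in MMA, 181.9 in LLS and 53.1 in T. Of the 9 markers, 6 were at least 2-fold higher in LMA than in LLS. Against MMA they were split, with 4 higher in LMA and 3 lower (Prrx2, Dlx5 and Dlx6). The summed endothelial markers were highest in LMA too (94.2, against 61.9, 41.3 and 34.3). Of these 8 markers, 5 were at least 2-fold higher in LMA than in LLS, and 1 than in MMA. The part of either tissue in the differences was not tested. The summed epithelial markers were lowest in LMA, at 100.5 against 267.1 in LLS. Of these 10 markers, 7 were at least 2-fold lower in LMA than in LLS and 0 higher. Against MMA 7 were lower in LMA and 1 higher (Krt5). The LMA values of Tbx2, Tbx4 and Tbx5 exceeded those of each other tissue by at least 2-fold in every alternative run that gave a value.

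**Figure D1:**
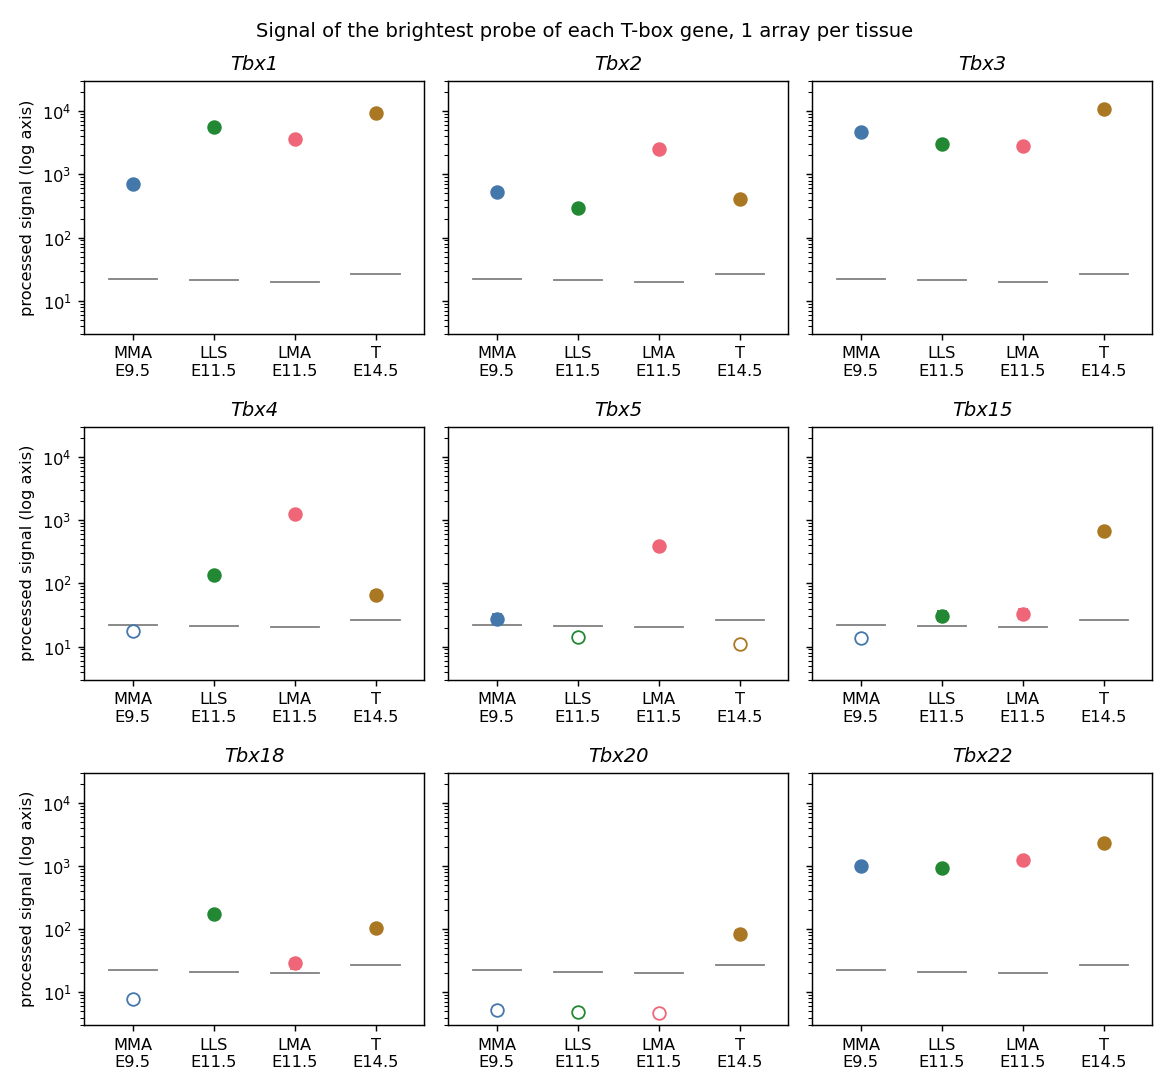
Processed signal (log axis, arbitrary units) of the brightest probe of each of the 9 T-box genes in the 4 tissues, 1 array each. Filled points are well above background and open points are not, vertical bars are the error given by the scanner software (mostly smaller than the point), and grey lines mark the lowest signal well above background on that array. Tbx2, Tbx4 and Tbx5 peak in LMA (2492.2, 1274.9 and 388.3), and Tbx15 in T (683.3).

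Tbx1, a regulator of pharyngeal arch development and of head muscle formation, was lowest in MMA and highest in T. The signal of its 1 probe (chromosome 16, 18581807 to 18581866, minus strand, mm9) was 715.4 (MMA), 5700.8 (LLS), 3676.5 (LMA) and 9298.4 (T). Both E11.5 tissues were well above the E9.5 arch, by 7.38-fold for LLS and 4.28-fold for LMA. T was 11.2-fold above MMA and 2.61-fold above LMA. LLS and LMA lay 1.72-fold apart and T and LLS 1.52-fold apart, so those neighbours in the order did not reach 2-fold. The summed muscle markers had the same lowest and highest tissue but were higher in LMA (137.0 ppm) than in LLS (38.2), the reverse of Tbx1. Of 9 compared between these, 5 were at least 2-fold higher in LMA and 0 in LLS. Single markers departed from the sum. Pax3 was highest in LMA (signal 541.1, against 44.3 in T) and Tnnt3 lowest in LLS (253.5, against 283.9 in MMA). The summed pharyngeal endoderm markers followed the order of Tbx1 among T (127.1), LLS (55.2) and LMA (3.5), but were higher in MMA (14.9) than in LMA. Of 5 compared between LLS and LMA, 3 were at least 2-fold higher in LLS. Pax1 was lower in LLS (signal 19.7, not well above background) than in LMA (148.8). The summed epithelial markers were also highest in T (1706.7) and higher in LLS (267.1) than in LMA (100.5), with MMA at 465.2. Most of the T sum was Krt5 (signal 85624.8) and Krt14 (86801.8). Of the 10 epithelial markers, 3 were at least 2-fold higher in T than in MMA and 3 lower. The part of these tissues in the Tbx1 values was not tested.

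Tbx3, a repressor closely related to Tbx2, was highest in T. Its brightest probe (chromosome 5, 120134511 to 120134570, plus strand) gave 4700.0 (MMA), 3037.2 (LLS), 2849.5 (LMA) and 10669.2 (T). Its second probe gave 807.6, 490.4, 441.2 and 1508.9 in the same order of tissues. Both probes thus put T first, then MMA, then LLS and LMA close together (1.19-fold and 1.24-fold apart). T was 3.26-fold above LLS and 3.87-fold above LMA by the brightest probe, and 2.86-fold and 3.53-fold by the second. Against MMA it was 1.95-fold higher by the first and 1.61-fold by the second. LMA was 1.98-fold below MMA by the first and 2.20-fold by the second, so the 2 probes fell on either side of 2-fold.

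Tbx15, known from craniofacial, limb and skin mesenchyme, was far higher in T than in the other tissues. Its brightest probe gave 13.8 (MMA), 31.0 (LLS), 33.3 (LMA) and 683.3 (T). MMA was not well above background and both E11.5 tissues were only slightly so. T was 20.5-fold above LLS, 21.2-fold above LMA and at least 26.5-fold above MMA. LLS and LMA differed by 0.05 on the log2 scale, with an error of 0.36. This probe lay on chromosome 3 at 99157901 to 99157960 (mm9), downstream of the second, undetected probe shown above, so the T signal rests on 1 of the gene's 2 probes. Several marker sums were also highest in T, among them muscle (2076.7), epithelium (1706.7 against 465.2 or less) and macrophage (47.3 against 26.2 or less), while cranial mesenchyme was lowest there. Of the 10 epithelial markers, 9 were at least 2-fold higher in T than in LMA. Against LLS 2 were higher and 2 lower, and against MMA 3 and 3. The part of these tissues was not tested.

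Tbx18, known from mesenchyme around developing organs and from the sinus region of the heart, was highest in LLS. Its 1 probe (chromosome 9, 87597824 to 87597883, minus strand) gave 7.9 (MMA), 171.2 (LLS), 28.9 (LMA) and 103.3 (T). LLS and T were both clearly detected, LMA barely, and MMA not. At E11.5, LLS was 6.57-fold above LMA, and it was at least 7.14-fold above MMA. T was 3.68-fold above LMA and 1.78-fold below LLS. The summed pharyngeal endoderm markers were likewise far lower in LMA (3.5 ppm) than in LLS (55.2) and T (127.1). In MMA the sum was 14.9, with 6 of 7 markers detected. Single markers were split. Of 5 compared between the E11.5 tissues, 3 had LLS above LMA by 2-fold or more. Pax1 had the reverse (signal 19.7 in LLS, 148.8 in LMA), and Hhex (63.6 and 110.0) stayed within 2-fold. From LMA to T, 3 of 5 rose by 2-fold or more, but Pax1 (0.78) and Hhex (0.76) did not. The part of pharyngeal endoderm in the Tbx18 values was not tested.

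For Tbx22, an X-linked gene known from cleft palate with tongue-tie, the probes disagreed. Probe 1 gave 983.6 (MMA), 920.2 (LLS), 1258.1 (LMA) and 2280.3 (T), a range of 1.20 on the log2 scale with T highest. Probe 2 gave 5.0, 493.1, 411.6 and 84.9, with MMA not well above background. By probe 2, LLS was at least 20.6-fold above MMA, LMA at least 15.4-fold, and T was 6.25-fold below LLS and 4.69-fold below LMA. The authors' deposited table lists probe 2 at 5.2 in MMA, 506.7 in LLS and 378.7 in LMA, and T between MMA and LMA as well. Probes 1 and 2 therefore gave opposite directions from LLS to T, 2.30-fold higher by the first and 6.25-fold lower by the second.

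The other Tbx22 probes were dimmer. Probe 3, the one aligned with Tbx15 above, gave 9.4, 41.2, 47.0 and 14.3, and probe 4 (chromosome X, 104880385 to 104880444) gave 4.5, 33.4, 27.7 and 5.3. Both were well above background in LLS and LMA and in neither MMA nor T. So 3 of the 4 probes had their higher signals at E11.5, and the probe with the GA run did not. Because the brightest probe stands for a gene in the counts below, those counts use probe 1, and where probe 2 changes a count, the count with it follows.

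Tbx20, known as a heart transcription factor, was dim, and its probes disagreed as well. Probe 1 (chromosome 9, 24563177 to 24563236, minus strand) gave 5.2 (MMA), 4.9 (LLS), 4.8 (LMA) and 84.4 (T), so that T alone was well above background, by at least 3.27-fold over MMA. It is printed whole because it is the single probe of the gene with a T signal.
Tbx20 probe 1: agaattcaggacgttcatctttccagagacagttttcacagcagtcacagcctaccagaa
Probe 2 (24527750 to 24527809) gave 55.7, 4.7, 21.6 and 9.9, and probe 3 (24544715 to 24544774) gave 25.8, 19.7, 19.2 and 12.7, each well above background in MMA alone. MMA was at least 2.43-fold above the other tissues by probe 2. Probes 4 and 5 were not well above background on any array. Direction between MMA and T therefore depended on the probe. In the counts below Tbx20 was compared only through the T signal of probe 1, which also made that probe the brightest, so its call as higher in T was set by this choice.

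Cardiac markers were set beside Tbx5 and Tbx20. Well above background were 6 of 12 in MMA, 8 each at E11.5 and 10 in T, and the list summed to 9.8, 13.7, 21.5 and 180.5 ppm. In T, the tissue of the Tbx20 probe 1 signal, several were far higher than elsewhere. Nppb, a natriuretic peptide gene, gave 5.4 (MMA), 5.3 (LLS), 5.1 (LMA) and 494.9 (T), and Myl2, the slow and ventricular myosin light chain gene, gave 22.1, 13.8, 21.7 and 1215.9. Nkx2-5, a cardiac homeobox gene, gave 200.3, 700.1, 767.3 and 2272.9. Gata4 was not well above background anywhere, and Nppa, the atrial natriuretic peptide gene, was barely so, in T alone. Myl7, the atrial myosin light chain gene, was highest in MMA (512.8) and lower in LLS (86.4), LMA (60.6) and T (138.3). Tnni3 was highest in LLS (98.9, against 46.7 in T), and Hcn4 was well above background in LLS and LMA but not in T. Myh6 was alike in LMA (655.7) and T (684.1). The slow muscle and cardiac genes Myh7 and Tnnt2 were highest in T (4210.1 and 12756.3), where skeletal muscle markers were highest as well. These 2 genes made up most of the summed cardiac signal in T (21922). The part of cardiac tissue in the Tbx20 signals was not tested.

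**Figure D2:**
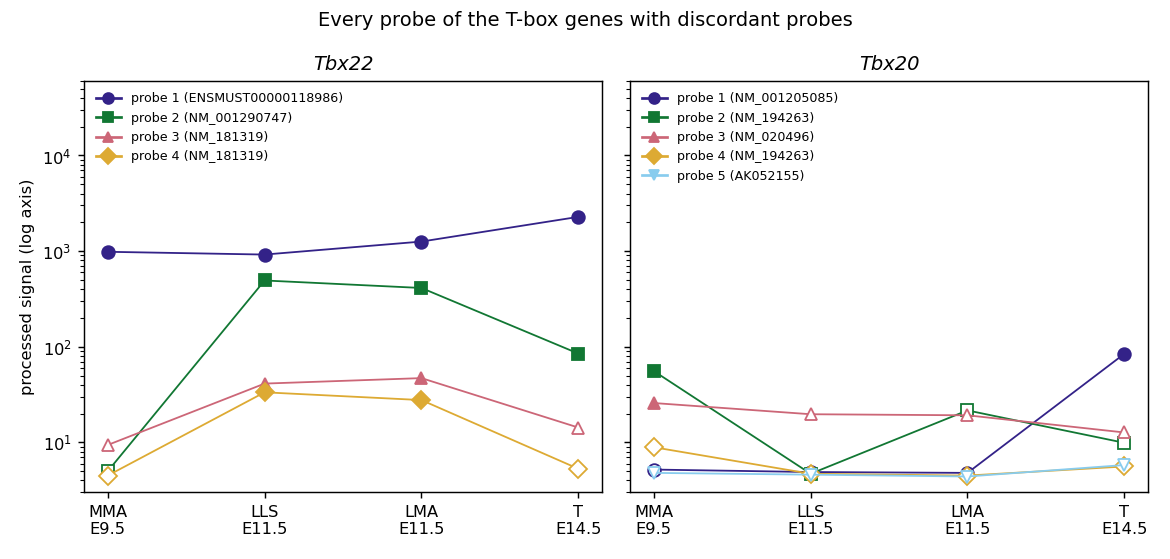
Processed signal (log axis, arbitrary units) of every probe of Tbx22 (left) and Tbx20 (right) in the 4 tissues, 1 array each, with the transcript each probe was designed to. Filled points are well above background, open points are not, and lines only join the values of 1 probe. Tbx22 probe 1 stays between 920.2 and 2280.3, whereas probe 2 goes from 5.0 in MMA to 493.1 in LLS and 84.9 in T.

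Between the 2 E11.5 tissues, where the question is what sets the tongue-forming swellings apart from the lateral arch, Tbx18 was higher in LLS and Tbx2, Tbx4 and Tbx5 were higher in LMA. These were 4 of the 8 genes compared, where 6.61% of all genes compared were at least 2-fold apart (3.73% higher in LLS and 2.88% lower). Tbx20 was not well above background in either by its brightest probe. Tbx5 was compared only through LMA and could not be called higher in LLS. With both tissues required well above background, which left Tbx5 out, 3 of 7 stood apart, with 1 higher in LLS and 2 lower. The members' median absolute difference was 1.75, against 0.21 over all genes compared. Tbx1, Tbx3, Tbx15 and Tbx22 lay within 2-fold.

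Against the E9.5 arch, members that stood apart at E11.5 by their brightest probes were all higher. In LLS these were Tbx1, Tbx4 and Tbx18, 3 of 8 compared, where 15.6% of all genes compared were at least 2-fold apart (9.89% higher and 5.73% lower). In LMA they were Tbx1, Tbx2, Tbx4 and Tbx5, 4 of 8, where the share over all genes was 18.0% (10.7% higher and 7.34% lower). With probe 2 in place of probe 1 for Tbx22, the counts became 4 and 5. Tbx4, Tbx18 and Tbx22 by probe 2 were not well above background in MMA. Their differences were bounds, compared only through E11.5, and could not be called lower. With both tissues required well above background, 1 of 4 members compared stood apart in LLS and 3 of 5 in LMA, all higher. By the brightest probes LLS minus MMA was -0.98 for Tbx2 and LMA minus MMA was -0.99 for Tbx3, both at the edge of 2-fold. Median scaling took them past it (-1.06 and -1.18). By other probes, Tbx3 was lower in LMA than in MMA (-1.14, probe 2), and Tbx20 was lower in LLS (at most -1.50) and LMA (at most -1.63), by its probe 2.

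The tongue at E14.5 differed from the swellings it grows from by higher Tbx3, Tbx15, Tbx20 and Tbx22 (probe 1) and lower Tbx4. This was 5 of 8 compared, where 19.0% of all genes compared were at least 2-fold apart (13.0% higher and 6.02% lower). With Tbx22 probe 2 it was also 5, with 3 higher and 2 lower. Tbx20 was compared only through its T signal and could not be called lower. With both tissues required well above background, which left Tbx20 out, 4 of 7 stood apart, with 3 higher and 1 lower. Tbx4 and Tbx22 were near the threshold, at -1.16 and 1.20. With normexp background correction Tbx4 (-0.72) and Tbx20 (0.66) fell inside 2-fold.

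Against LMA, 8 of 9 members stood apart in T, where 21.6% of all genes compared did (14.4% higher and 7.20% lower). Tbx1, Tbx3, Tbx15, Tbx18 and Tbx20 were higher in T and Tbx2, Tbx4 and Tbx5 lower. With Tbx22 probe 2 (-2.23) it was 9 of 9, with 5 higher and 4 lower. Against MMA, 5 of 9 stood apart, where the share over all genes was 32.6% (18.6% higher and 14.0% lower). All 5 were higher in T (Tbx1, Tbx4, Tbx15, Tbx18 and Tbx20), 4 of them as bounds, and with Tbx22 probe 2 (at least 1.72) it was 6. The values of Tbx3 (0.97) and of Tbx22 probe 1 (1.99-fold) lay just below 2-fold in that comparison. With normexp, Tbx4 (0.42), Tbx18 (0.85) and Tbx20 (0.56) fell inside 2-fold against MMA, and Tbx18 (0.93) and Tbx20 (0.83) against LMA. These comparisons share arrays, so their values are not independent of each other. Bounds of Tbx4, Tbx15, Tbx18, Tbx20 and Tbx22 probe 2 against MMA were compared only through T and could not be called lower. The same held for Tbx20 against LMA. Tbx5 was not well above background in T. Its bounds (at most -0.25 against MMA and -3.82 against LMA) could not be called higher in T. With both tissues required well above background, which left Tbx5 and Tbx20 out, 6 of 7 stood apart against LMA (4 higher and 2 lower). Against MMA it was 1 of 4, Tbx1.

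**Figure D3:**
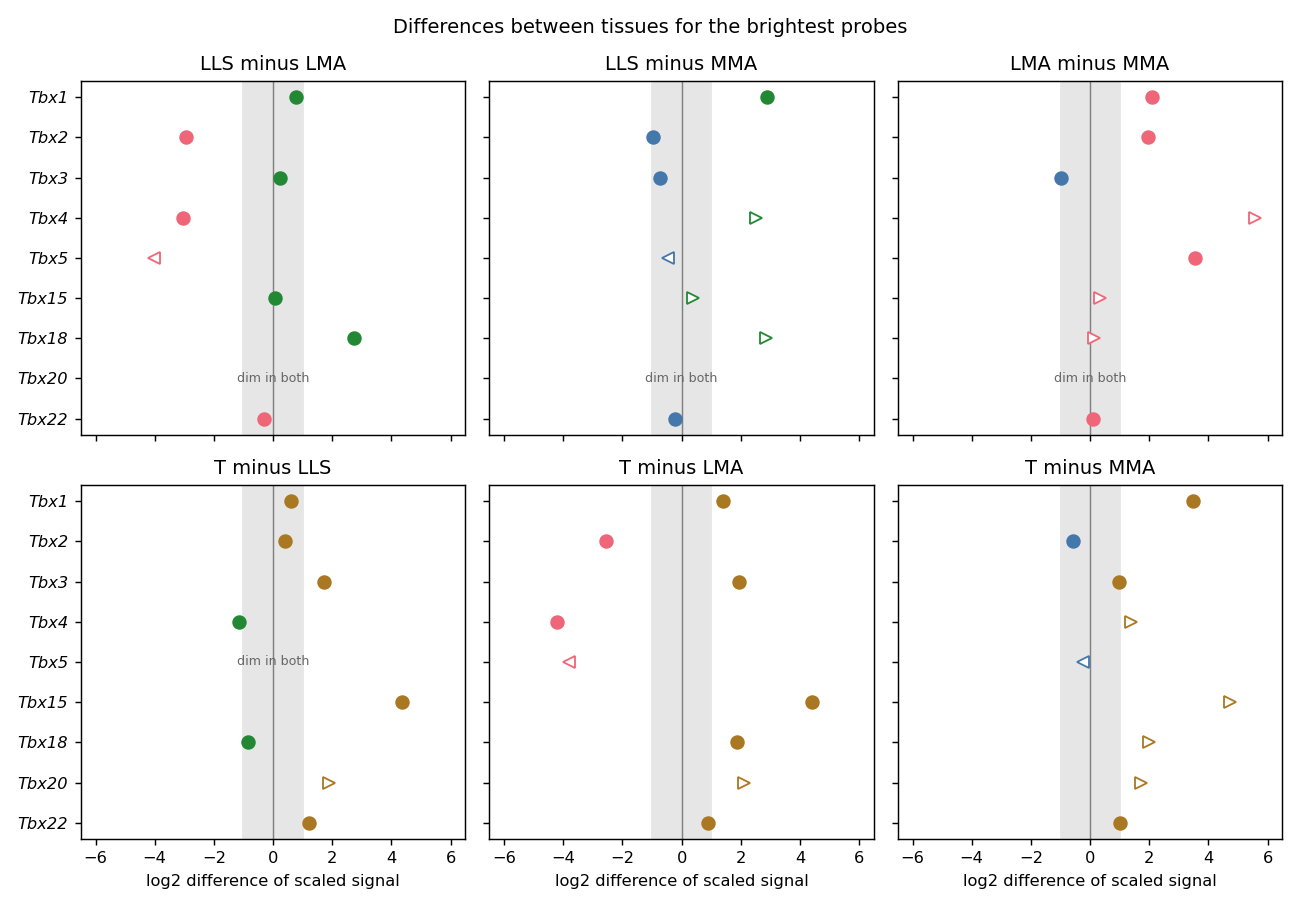
Log2 difference of scaled signal (x axis) between each pair of tissues for the brightest probe of each of the 9 genes, 1 array per tissue. Filled points are measured on both arrays, open triangles are bounds that point away from 0, colour shows the tissue with the higher value, and the grey band is within 2-fold. Tbx2, Tbx4 and Tbx5 lie to the left in LLS minus LMA (-2.93, -3.06 and at most -4.03) and in T minus LMA.

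Over all 4 tissues, 5 members were highest in T (Tbx1, Tbx3, Tbx15, Tbx20 and Tbx22 by their brightest probes), 3 in LMA, 1 in LLS and 0 in MMA. With Tbx22 probe 2 these were 4 in T, 3 in LMA and 2 in LLS. By the brightest probes, only Tbx15 and Tbx20 were at least 2-fold higher in T than in each other tissue, 2 of 9, where 9.30% of detected genes were, and for Tbx20 the choice of probe set this, since probe 2 was lower in T than in MMA (at most -1.28). The range over the tissues was at least 2-fold for 9 of 9 members (41.8% of detected genes) and at least 4-fold for 7 of 9 (15.0%). The exceptions at 4-fold were Tbx3 and, by probe 1, Tbx22, whose probe 2 had a range of at least 4.36, which makes 8 of 9. The brightest probes of Tbx1, Tbx2, Tbx3 and Tbx22, 4 of 9, were well above background in all 4 tissues, against 56.6% of all genes, and with Tbx22 probe 2 it was 3.

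**Figure D4:**
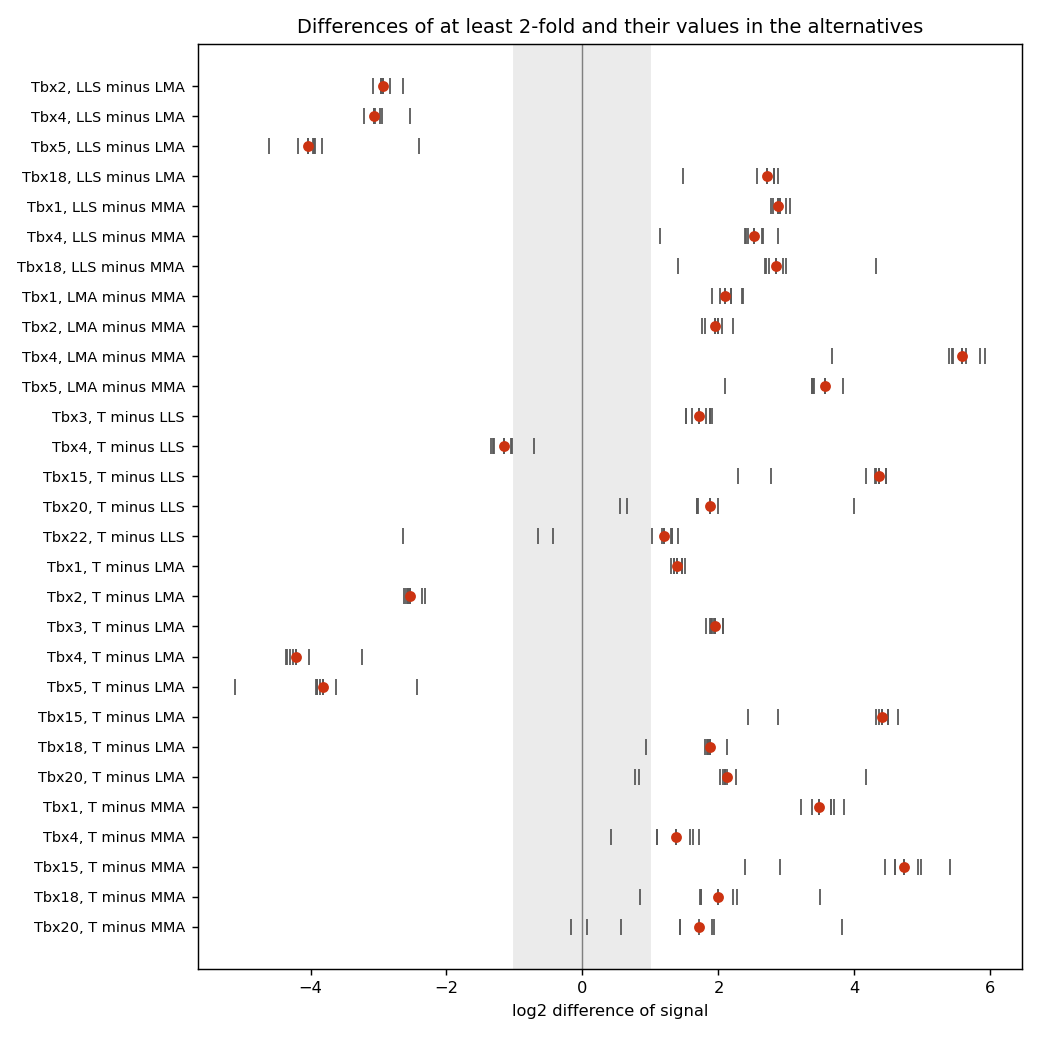
Log2 difference of signal (x axis) for each difference of at least 2-fold in a member's brightest probe. Red points are the values reported, grey ticks are the values under each other way of processing, and the grey band is within 2-fold. Ticks cross 0 for Tbx22, T minus LLS, and Tbx20, T minus MMA, and for no other.

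Tbx2 and Tbx4 lie next to each other on chromosome 11, and Tbx3 and Tbx5 on chromosome 5, with no other protein-coding gene between them in the RefSeq order. The probes of the first pair lie 74.1 kb apart and those of the second 199.6 kb apart (mm9). Tbx2 and Tbx4 shared their highest tissue, LMA, whereas Tbx3 was highest in T and Tbx5 in LMA. LMA minus MMA was 3.56 for Tbx5 and -0.99 for Tbx3. The genes that flank the pairs were named for their position. On chromosome 11, Bcas3 gave 162.5 (MMA), 175.8 (LLS), 444.6 (LMA) and 523.4 (T), and Brip1, a DNA repair helicase gene, gave 241.9, 217.7, 311.9 and 209.3. Bcas3 was higher in LMA than in MMA and LLS (by 1.19 each), as Tbx2 and Tbx4 were, but higher still in T. Over the 4 tissues Bcas3 varied by 1.47 and Brip1 by 0.53, against 2.93 for Tbx2 and at least 5.58 for Tbx4. On chromosome 5, Med13l varied by 0.86 and Rbm19 by 1.87, and Rbm19 was highest in MMA (6189.9).

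The antisense gene Tbx3os2 was well above background in T alone, at 98.3 against 7.9 or less, where Tbx3 was highest as well. Tbx3os1 was not well above background on any array. The probes of these genes are of 1 strand by design, and whether the labelled strand separates them fully was not analysed here.

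**Figure D5:**
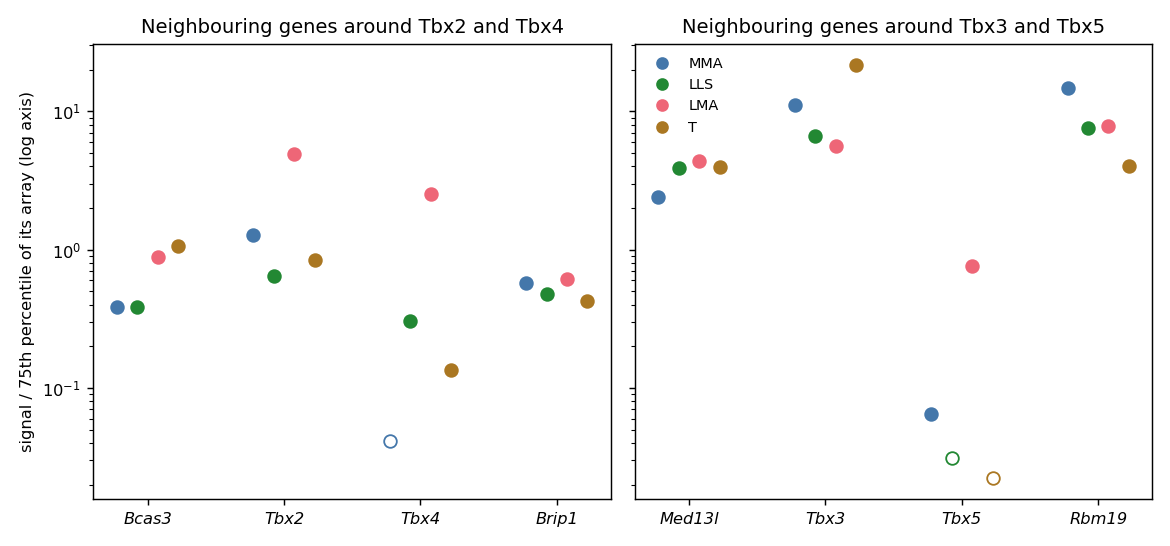
Signal divided by the 75th percentile of its array (log axis) for Tbx2 and Tbx4 (left) and Tbx3 and Tbx5 (right) with the protein-coding genes on either side, 1 array per tissue. Each column of 4 points is 1 gene, open points are not well above background, and levels compare between tissues but not between genes. Tbx2 and Tbx4 both peak in LMA, which the flanking Bcas3 and Brip1 do not share to that extent.

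Genes with the most similar course over the tissues were found for each member with a range of at least 2 log2 units, among genes well above background in the same tissues. Likeness was the largest absolute difference over the 4 log2 values, each centred on its own mean, and it describes 4 arrays only. For Tbx1 these were Wnt7b (0.11), Bcl3 (0.14) and Olfr629 (0.17), of 14140 genes. Wnt7b, a Wnt ligand gene of epithelia, gave 150.6 (MMA), 1072.2 (LLS), 702.9 (LMA) and 1763.2 (T). For Tbx2 they included Zfhx4 (0.54) and Dclk2 (0.56), less close than for Tbx1.

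For Tbx4 they were Gria2 (0.75), Prima1 (0.77) and Zar1 (0.79), of 611 genes with the same pattern of detection. For Tbx5 they were Irx5 (1.71), Ifnk (1.95) and Irx3os (2.13), of 139 genes, none of them close. Irx5, an Iroquois homeobox gene, gave 111.3, 11.1, 228.2 and 12.3 and so shared the detection in MMA and LMA but not the size of the difference. Tbx15 was followed by Akap6 (0.23), Lgr6 (0.25) and Calml3 (0.27), and Tbx18 by Cdkn2b (0.27), Fam162b (0.35) and Dbx2 (0.64). Cdkn2b, a cell cycle inhibitor gene, gave 16.9, 153.4, 32.6 and 81.1, in the same order of tissues as Tbx18. For Tbx20, detected in T alone by its brightest probe, the measure only matches the T signal, and Grp, Vmn1r170 and Megf11 were the nearest of 657 genes.

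Of the other T-box genes, 4 of 8 were detected. All 8 were on the array, and the brachyury gene T, Tbx19, Tbr1 and Eomes were not well above background anywhere. Mga, which encodes a large protein with a T-box and a second DNA-binding domain, gave 3203.0 (MMA), 3134.4 (LLS), 2905.9 (LMA) and 3018.4 (T). Tbx6, named after its values were seen, gave 36.4, 70.7, 103.6 and 68.2, and its LMA minus MMA of 1.24 was the one difference of at least 2-fold in this list over all 6 comparisons. Tbx10 lay between 30.6 and 40.9, and Tbx21 did not exceed 30.5.

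Of 15 genes listed as acting upstream of T-box genes, 14 were compared between LLS and LMA, and 5 passed 2-fold, all higher in LLS (3.73% of all genes were), with a median of 0.27 against 0.01 over all genes. These were Foxa2, Shh, Foxc1, Foxc2 and Pitx1. Foxc1 and Foxc2, forkhead genes of head mesenchyme, were higher by 1.08 and 1.03, and Pitx1, a homeobox gene of the oral region and hindlimb, by 1.5. Foxc2 gave 261.0 (MMA), 1095.0 (LLS), 596.1 (LMA) and 78.7 (T), whereas Tbx1 was highest in T. Mn1, a co-regulator known to act ahead of Tbx22 in the palate and named after its values were seen, gave 490.4, 1495.4, 2095.9 and 943.6, highest in LMA and lowest in MMA. Tbx22 probe 2 was lowest in MMA as well and probe 1 was not.

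Between T and LLS, 3 of 14 upstream genes were higher and 5 lower (19.0% of all genes were at least 2-fold apart either way), and between T and LMA 7 were higher and 5 lower (21.6%). Between LMA and MMA 4 were higher and 5 lower (18.0%), between LLS and MMA 8 and 2 (15.6%), and between T and MMA 5 and 5 (32.6%). Of 13 genes listed as T-box targets, 11 were compared between LLS and LMA. Osr2, a zinc finger gene of palate mesenchyme (3.28), was among those at least 2-fold higher in LLS. Lhx2 (-1.05) and Tgfb2, a TGF-beta ligand gene (-1.06), were at least 2-fold lower, and the median was -0.37. Osr2 gave 66.5 (MMA), 1541.9 (LLS), 176.4 (LMA) and 1101.4 (T), the same order as Tbx18. Tgfb2 gave 276.7, 3354.4, 7771.3 and 2969.8, and was highest in LMA as Tbx2, Tbx4 and Tbx5 were.

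Of 11 targets compared, 3 were higher and 3 lower in LLS minus MMA (15.6% of all genes apart) and 5 and 2 in LMA minus MMA (18.0%). Of 13 compared with T, 5 were higher and 3 lower in T minus LLS (19.0%), 4 and 4 in T minus LMA (21.6%), and 6 and 4 in T minus MMA (32.6%). Among 15 genes listed as protein partners and co-repressors, 13 were compared between LLS and LMA, and Tle4, a Groucho co-repressor gene, was the one at least 2-fold apart (1.05 higher in LLS), where 6.61% of all genes were. Between T and LMA 3 of 14 partners were higher and 2 lower (21.6%), and their median was -0.35. Gata4, a partner of heart T-box proteins, was not well above background anywhere.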

How the data were processed

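The deposited scanner files hold intensity values, which the authors obtained in Agilent Feature Extraction, version 10.7.1.1 per the file headers (the submitters' processing notes list 9.5.1.1), with background subtracted and no scaling between arrays. A deposited value table holds further linear intensity of unnamed normalization. It correlated with the scanner signals at 0.999 or above on the log2 scale, lacks 4460 probes and served as an alternative. Its member differences were nearly the same as those under quantile normalization (Tbx3, T minus MMA, 1.29 in both). These alternatives are therefore not separate checks.

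Log2 of the processed signal minus the 75th percentile of its array was used. Flagged spots were left out, and 4 of 56605 probes had none left. RefSeq accessions (GRCm38.p6) named 32990 probes, older symbols 523 and the file 10410, and 12678 had no name. The probe with the highest mean signal stood for a gene. Genes were compared where 1 tissue or both were well above background, and counted from 2-fold. With 1 array per tissue, no test was run.

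Members and lists were chosen with earlier results of these data known. List genes were named where at least 2-fold apart in LLS minus LMA, as were the 3 genes most like each member. Exceptions are stated, and some genes named by this rule are not reported here. Alternatives were normexp (offset 50), quantile, cyclic loess, median and no scaling, other treatments of dim probes, other probe choices, the deposited table and 4-fold. A probe choice for Tbx22 was added after seeing the data. Counting was tested on simulated data. Python 3.11.15, pandas 2.3.3, numpy 2.4.6, R 4.3.3, limma 3.58.1 and matplotlib 3.10.9 were used.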

Additional observations from a re-analysis of the deposited data

How the results depend on the processing

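No paired analysis was possible because each tissue has 1 array and the labels give no replicate numbers. With normexp, T minus LLS and T minus MMA each had 3 members at least 2-fold apart in place of 5, and Tbx4 (T minus LLS -0.72, T minus MMA 0.42), Tbx18 (T minus LMA 0.93, T minus MMA 0.85) and Tbx20 (0.66, 0.83 and 0.56 for T minus LLS, LMA and MMA) fell inside 2-fold. Without filter and floor, LLS minus MMA had 5 in place of 3. With both tissues required above background, LLS minus MMA and T minus MMA each had 1, since fewer genes were compared, and no count of ranges was given. With the mean over probes, or with the dimmest probe detected on 1 or more arrays, T minus LLS had 3. The latter choice kept Tbx15 at its brightest probe, since its other probe was not detected. At 4-fold, T minus LLS had 1, T minus LMA 5 and T minus MMA 3.

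Direction turned for Tbx22, T minus LLS, at -0.65 by the mean over probes and -0.43 by the dimmest. By probe 2 (chosen after seeing the data) the difference was -2.64. For Tbx20, T minus MMA, direction turned at -0.17 by probe 3, the dimmest of its detected probes. No other member difference of at least 2-fold changed sign in these alternatives. Scaling moved the median over all genes in T minus MMA from -0.09 to 0.19 (cyclic loess), -0.37 (median) and 0.12 (none), and T minus MMA had 7 members in place of 5 with quantile, cyclic loess, no scaling and the deposited table, as Tbx3 (1.29, 1.34, 1.18 and 1.29) and Tbx22 (1.14, 1.32, 1.21 and 1.14) passed 2-fold. Dim signals limit Tbx4, Tbx5, Tbx15, Tbx18 and Tbx20, each not well above background in 1 or more tissues.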
